A study of Homo sapiens with 8 samples.

Results

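Very wide stretches of open chromatin were taken from a FAIRE-seq count table whose windows, each 150 bp long, start every 50 bp (hg19 coordinates). Neighbouring windows of 1 chromosome were joined across gaps of at most 100 bp, and the joined regions wider than 2000 bp were kept. They numbered 246 of 35741 regions (0.688%) and held 10660 of 256141 windows (4.16%). Their summed width was 616300 bp, or 3.56% of that of all regions.

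FAIRE recovers the DNA that formaldehyde does not tie to protein, so a window's count reads how free of nucleosomes that stretch was. Such DNA marks promoters, enhancers and other regulatory elements, most of which are narrow, and a wide open stretch can hold several elements in a row. AIRE, the autoimmune regulator, acts in thymic epithelial cells, where it switches on many genes that are otherwise restricted to other tissues. Etoposide traps topoisomerase II on DNA and leaves double-strand breaks, and AIRE is known to associate with this enzyme.

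All cells were AIRE-Tet cells, a line of the human embryonic kidney line HEK293 in which doxycycline turns on human AIRE. DoxEtop cells received 1.5 µM doxycycline and, after 24 h of induction, 2 µM etoposide for 24 h. Dox cells received doxycycline alone, Etop cells etoposide alone, and Control cells neither, with 2 biological replicates in each of the 4 groups. "Induced" stands here for the 4 DoxEtop and Dox libraries and "uninduced" for the 4 Etop and Control libraries. Cells with doxycycline but no AIRE transgene were not analysed here. Effects of the drug and of AIRE therefore cannot be told apart, and AIRE itself was not measured by this assay. Summed over its windows, a library held 4489871 to 5305079 counts if induced and 4568818 to 8275911 if not. Levels are CPM, that is, counts scaled to each library's adjusted window total.

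The wide regions spanned 2050 to 5400 bp, with a median of 2400 bp and quartiles of 2150 and 2650 bp, against a median of 350 bp over all regions. Only 36 were wider than 3000 bp and 3 wider than 4000 bp. The limit of 2000 bp cut through a smooth tail: 58 regions were 2050 to 2100 bp wide and 47 were 1950 to 2000 bp wide. The region chr1:155022851-155024900, 2050 bp wide, stood just above it, and chr1:16160951-16162950, 2000 bp wide, just below it. The 3 widest were chr19:30015501-30020900 with 5400 bp, chr19:46270051-46274550 with 4500 bp and chr19:42756601-42760650 with 4050 bp.

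Chromosome 19 held 88 of the 246 wide regions, or 35.8%, against 15.1% of all regions. Chromosome 10 held 24 (9.76% against 5.47%) and chromosome 21 held 7 (2.85% against 1.23%). The others lay on chromosomes 1 (31), 17 (24), 15 (15), 6 (12), 16 (10), 5 (8), 7, X and 12 (5 each), 22 and 2 (4 each), 14 (3) and 20 (1). The nearest other merged region was a median of 450 bp away, against 1700 bp over all regions, and 30 wide regions had another wide region within 10 kb. The closest pair, chr19:36205551-36208950 and chr19:36209101-36211250, was 150 bp apart.

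**Figure D1:**
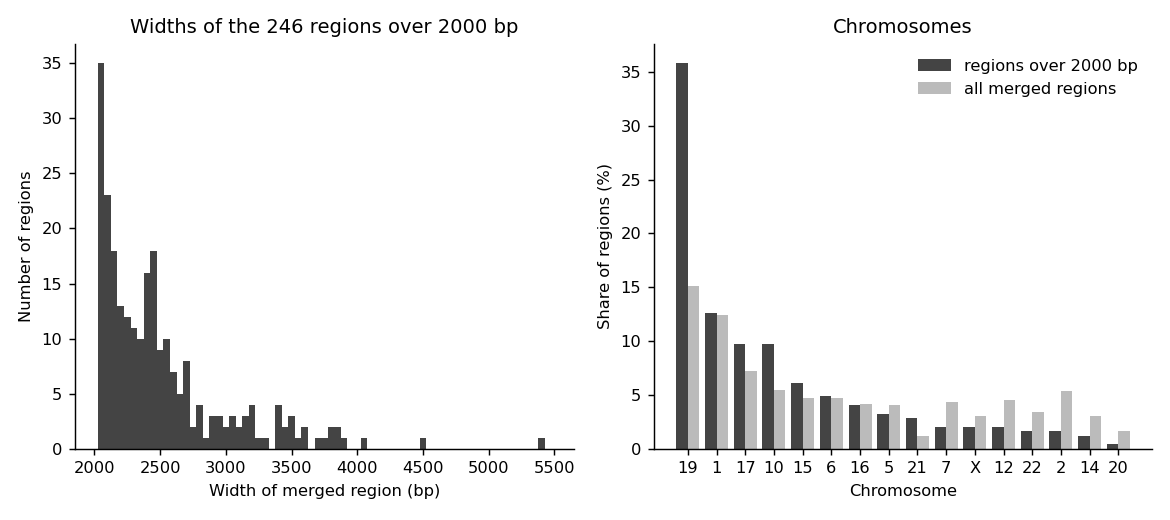
Left, widths of the 246 regions (x, bp) against the number of regions. Right, the share (%) of wide regions and of all 35741 regions on each chromosome that holds a wide region; chromosome 19 holds 35.8% of the wide regions and 15.1% of all regions.

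By the count given below, most wide regions held several maxima. Of the 246, 106 had no internal gap (43.1%), none had more than 4 gaps, and windows filled 90.1% of the possible positions. Counting a maximum only where it stood out by 25% of the highest window, 179 wide regions had 3 or more maxima (72.8%), 55 had 2 and 12 had 1 (4.88%). In the next narrower regions, those over 1000 and up to 2000 bp and called mid-width below, 36.5% had 3 or more and 20.3% had 1, so the number of maxima followed the width. The mean level over all 8 libraries was 2.91 to 8.69 CPM per region, with a median of 4.26 CPM. The highest window had a median of 7.59 CPM, against 6.07 CPM in mid-width regions, and lay in the inner 50% of the region's width in 61.0% of cases, against 60.2%.

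Within wide regions the mean level of the induced libraries was lower than that of the uninduced ones at the edges and higher at the centres. In the outermost 250 bp at each end, the mean window level was 3.49 and 3.61 CPM in DoxEtop and 3.60 and 3.70 CPM in Dox, against 4.21 and 4.16 CPM in Etop and 3.81 and 4.34 CPM in Control. By this mean all 4 induced libraries lay below all 4 uninduced ones, with 3.60 ± 0.085 against 4.13 ± 0.225 CPM (SD, n = 4 each). By the median log2 level the arms overlapped, with 2.01 in Dox replicate 2 against 1.95 in Control replicate 1. From 250 to 500 bp the arms overlapped, at 4.51 ± 0.024 in induced against 4.50 ± 0.043 CPM in uninduced libraries.

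More than 1000 bp from an end, the mean level was 5.13 and 5.22 CPM in DoxEtop and 5.04 and 4.99 CPM in Dox, against 4.91 and 4.88 CPM in Etop and 4.85 and 4.88 CPM in Control. Here every induced library lay above every uninduced one, with 5.09 ± 0.100 against 4.88 ± 0.023 CPM. Between 750 and 1000 bp the levels were 4.96 ± 0.112 in induced and 4.68 ± 0.100 CPM in uninduced libraries, again without overlap. The rise from edge to centre, as the difference of median log2 levels, was 0.49 and 0.46 in DoxEtop and 0.38 and 0.29 in Dox, against 0.09 and 0.14 in Etop and 0.28 and -0.05 in Control. Control replicate 1 thus came close to Dox replicate 2, while Control replicate 2 had no rise. No test was made on this profile, which is a summary over members.

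**Figure D2:**
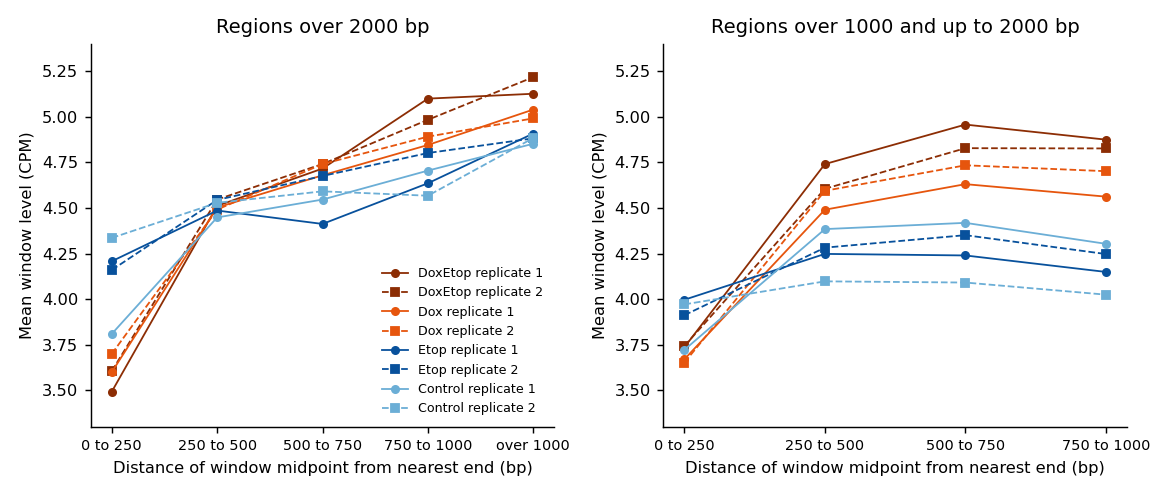
Mean window level (CPM, axis not from 0) against the distance of the window from the nearest region end (bp), 1 line per library, for regions over 2000 bp (left) and mid-width regions (right). In the wide regions the 4 induced libraries lie lowest in the outermost 250 bp and highest beyond 1000 bp.

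Mid-width regions had the same order of values, with 3.70 ± 0.046 in induced against 3.90 ± 0.124 CPM in uninduced libraries at 0 to 250 bp, where the arms overlapped. At 750 to 1000 bp they had 4.74 ± 0.140 against 4.18 ± 0.122 CPM. The table holds only windows with at least 111 counts summed over the libraries, and the uninduced libraries carry more of that sum. With only the windows that passed a higher minimum both as they are and with the arms' depths exchanged, the outermost 250 bp of wide regions had 3.88 in induced against 4.32 CPM in uninduced libraries. Beyond 1000 bp they had 5.28 in induced against 5.04 CPM in uninduced libraries. The arms did not overlap by these means, but by the median log2 level they overlapped at both distances. At the edge Dox replicate 2 had 2.09 against 2.04 in Control replicate 1, and beyond 1000 bp Dox replicate 1 had 2.34 against 2.35 in Etop replicate 2. Distances of the windows so selected were taken from the original region ends. The selection therefore cannot show how far the deeper uninduced libraries placed those ends.

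Each window was tested for AIRE induction over all 8 libraries with etoposide as a covariate. Of the 10660 windows in wide regions, 938 passed edgeR's quasi-likelihood test at an adjusted p of 0.05, 732 lower with induction (6.87%) and 206 higher (1.93%). Among all windows 7.44% passed, 6.17% lower and 1.28% higher, so the lower share was near the background and the higher share somewhat above it. Regions up to 300 bp had 9.91% lower and 0.531% higher, and mid-width regions had 4.64% and 1.75%. The windows that passed lower averaged 1.82 and 2.58 CPM in DoxEtop and 2.58 and 2.18 CPM in Dox, against 6.85 and 5.91 CPM in Etop and 4.62 and 7.47 CPM in Control. Control replicate 1 was the lowest uninduced library in 59.7% of these windows and the highest uninduced library in 43.2% of those that passed higher, so it lay nearest the induced libraries in both directions. Without Control replicate 1 the count was 1152 windows (10.8%, against 9.26% of all windows), and without Control replicate 2 it was 366 (3.43% against 2.86%). It was 443 without DoxEtop replicate 1 (4.16% against 3.51%) and 547 without Dox replicate 2 (5.13% against 4.54%).

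The lower windows lay in short runs spread through the regions. The 732 windows formed 272 runs with a median of 2 windows, and 60 of these runs touched a region end. The 206 higher windows formed 117 runs with a median of 1 window, of which 2 touched an end. Lower windows made up 9.74% of those within 250 bp of an end and 5.92% of those beyond 1000 bp, while higher windows made up 0.589% and 2.70%. Mid-width regions had the same order, with 6.37% lower within 250 bp of an end and 3.42% at 750 to 1000 bp, and 0.768% and 3.0% higher. The uninduced libraries carry more of the summed counts by which windows are present. Among windows of wide regions that passed the higher minimum both ways, 8.13% were lower within 250 bp of an original end and 5.62% beyond 1000 bp. Higher ones made up 0.646% and 2.67%. The part of the window selection in these shares and in the runs at region ends was not tested. Lower runs occurred in 138 regions, higher runs in 84, both in 44 and neither in 68. A wide region holds more windows than a narrow one and so more easily holds a run. These counts are given without a share over all regions and do not set the wide regions apart. Within 100 bp of a region's highest window 3.66% of windows were lower, against 8.73% at 350 to 600 bp from it.

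The region chr19:36246701-36250400, 3700 bp wide, had the most lower windows, 23, and none higher. Its highest window, chr19:36248951-36249100, averaged 19.9 CPM, while the flanks on both sides of this summit were lower with induction. On the left flank the run of 7 windows chr19:36248501-36248950 had its strongest difference at chr19:36248651-36248800, with 0.187 and 1.19 CPM in DoxEtop and 0.572 and 0.441 CPM in Dox, against 10.2 and 4.60 CPM in Etop and 1.20 and 10.9 CPM in Control. Control replicate 1 stood just above the highest induced library there. On the right flank, chr19:36249351-36249500 had 0.373 and 1.78 CPM in DoxEtop and 0.954 and 0.662 CPM in Dox, against 9.48 and 7.23 CPM in Etop and 2.77 and 12.1 CPM in Control. The 2 log2 fold changes were -3.46 and -3.04, with adjusted p of 4.08e-06 and 1.28e-06 (edgeR).

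The longest run of all, 14 windows at chr19:41110101-41110900, lay inside chr19:41109401-41112850, next to its highest window. Its strongest window had 0.560 and 2.37 CPM in DoxEtop and 1.91 and 0.882 CPM in Dox, against 8.33 and 4.17 CPM in Etop and 3.73 and 8.84 CPM in Control, a log2 fold change of -2.12 (adjusted p = 0.000185, edgeR). In chr19:39339751-39343550, which held 3 lower runs of 4 to 7 windows, the window chr19:39340901-39341050 had 0.560 and 1.19 CPM in DoxEtop and 0.763 and 2.87 CPM in Dox, against 11.6 and 11.4 CPM in Etop and 7.10 and 15.7 CPM in Control. Every induced library was far below every uninduced one in that window (log2 fold change -3.12, adjusted p = 1.14e-08, edgeR). No window of the region passed higher.

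Higher windows were most numerous in chr19:40696251-40698650, with 13, followed by chr19:41195351-41198450 with 9 and chr15:75639201-75641650 with 8. In the first, chr19:40698201-40698350 had 5.41 and 7.71 CPM in DoxEtop and 6.29 and 8.38 CPM in Dox, against 1.29 and 3.73 CPM in Etop and 3.49 and 3.0 CPM in Control. In the second, chr19:41196301-41196450 had 7.09 and 5.14 CPM in DoxEtop and 4.39 and 5.73 CPM in Dox, against 0.718 and 2.41 CPM in Etop and 1.32 and 2.25 CPM in Control. The arms did not overlap in either window, with log2 fold changes of 1.30 (adjusted p = 0.00467) and 1.77 (adjusted p = 0.00122, edgeR). In chr15:75639201-75641650 4 of the 8 windows formed a run at the right end, and 3 other windows of the region were lower.

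**Figure D3:**
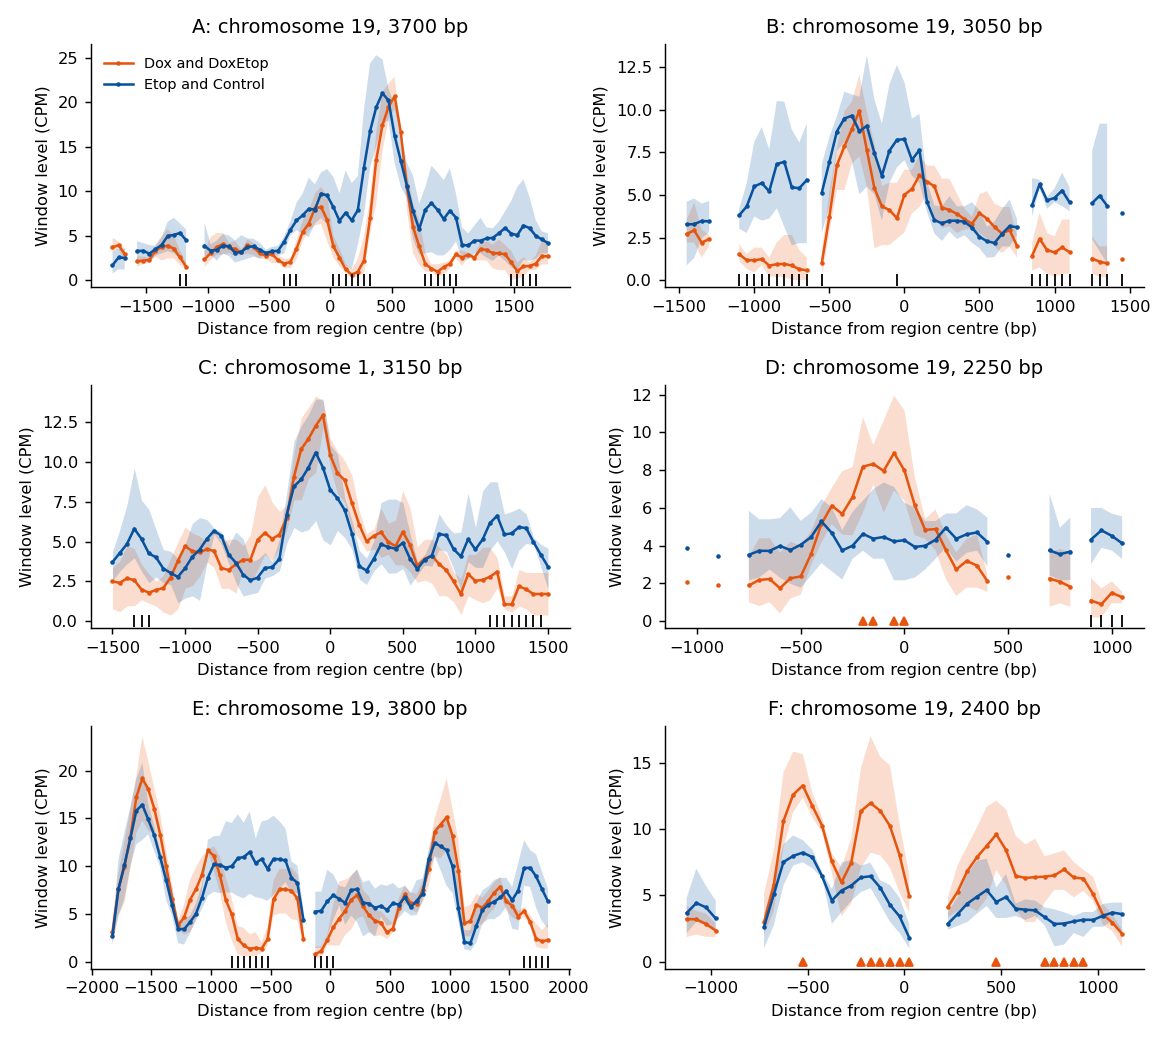
Mean window level (CPM) along 6 wide regions against distance from the region centre (bp), induced (orange, mean of Dox and DoxEtop) and uninduced (blue, mean of Etop and Control), with the range of 4 libraries shaded, ticks at windows that passed lower and triangles at windows that passed higher; lines break where windows are missing, and lone windows are dots. A to F are chr19:36246701-36250400, chr19:50178901-50181950, chr1:228268801-228271950, chr19:38809701-38811950, chr19:39339751-39343550 and chr19:40696251-40698650.

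To ask whether centres changed by another factor than edges, the inner 50% of each region was set against its outer 25% at each end within each library. These are called the inner and outer parts below. In 22 of the 246 wide regions (8.94%) the ratio changed with AIRE induction, 18 with the inner part relatively higher (7.32%) and 4 with it relatively lower (1.63%), by edgeR at an adjusted p of 0.05. In all, 9607 regions of at least 600 bp had counted windows in both parts and were tested. Of these, 4.32% passed, 3.58% relatively higher and 0.739% relatively lower, and among mid-width regions 4.96% and 0.845%. The median log2 change of the ratio was 0.18 in wide regions and 0.19 over all, and it was above 0 in 171 of 246 (69.5%) and in 67.1% of all. In all 18 regions with a relatively higher inner part the outer parts had a lower mean level in induced than in uninduced libraries, with a median log2 difference of -0.53. In 16 the inner part had a higher one, with a median of 0.25 over the 18. These regions were chosen by their ratio in the same libraries, so the directions of the parts follow in part from that choice. The region ends also depend on summed counts, of which the uninduced libraries carry more, and the part of this in the ratio was not tested. When regions were formed again from the windows that passed the higher minimum both ways, 11 of 141 passed (7.8%, against 3.4% of all tested). The median change was then 0.15 in wide regions and 0.18 over all. The count of wide regions that passed rested on single libraries. It was 3 without Control replicate 2 (1.22%, against 0.697% of all tested) and 7 without DoxEtop replicate 1 (2.85% against 1.18%). Without Etop replicate 1 it was 8 (3.25% against 2.07%), without Dox replicate 2 it was 12 (4.88% against 1.73%), and without DoxEtop replicate 2 it was 13 (5.28% against 2.68%). The share over all tested regions thus fell too, and that of wide regions stayed above it in each of these settings.

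The largest relative rise of the inner part was at chr19:38809701-38811950, where the outer parts had 0.875 and 1.31 CPM in DoxEtop and 3.11 and 1.71 CPM in Dox, against 3.35 and 4.01 CPM in Etop and 2.87 and 5.45 CPM in Control. Its inner part had 5.49 and 4.37 CPM in DoxEtop and 5.48 and 4.84 CPM in Dox, against 3.95 and 3.91 CPM in Etop and 5.05 and 4.29 CPM in Control. The arms overlapped in both parts and were only just apart in their ratio, at 0.82 or more in induced and up to 0.81 in uninduced libraries on the log2 scale. The ratio changed by 1.60 on the log2 scale (SE 0.302, adjusted p = 0.00302, edgeR). At chr1:228268801-228271950, which has 1 central maximum, the outer parts had 2.04 and 2.95 CPM in DoxEtop and 2.60 and 2.99 CPM in Dox, against 5.24 and 4.22 CPM in Etop and 4.51 and 4.78 CPM in Control. The induced libraries were all lower at these edges, while the inner part had 5.73 to 6.90 CPM in induced and 4.37 to 6.20 CPM in uninduced libraries, which overlapped. The ratio changed by 1.07 (SE 0.199, adjusted p = 0.00278, edgeR).

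At chr16:30075701-30078000 the outer parts had 1.98 to 2.77 CPM in induced and 3.13 to 4.78 CPM in uninduced libraries, and the ratio changed by 1.31 (SE 0.266, adjusted p = 0.00495, edgeR). The other regions among the 6 with the largest relative rise were chr19:50178901-50181950 at 1.08, chr1:6661251-6663450 at 1.08 and chr15:91477451-91479700 at 1.07. Leaving out Control replicate 2 ended the call at 4 of these 6, with 1.09 at chr16:30075701-30078000, 1.02 at chr19:50178901-50181950, 0.94 at chr1:6661251-6663450 and 0.99 at chr15:91477451-91479700. The call at chr1:6661251-6663450 also ended without Dox replicate 1, Etop replicate 1 or DoxEtop replicate 1 (0.83 to 0.96), and that at chr15:91477451-91479700 without Etop replicate 1 (0.82) or DoxEtop replicate 1 (0.97). With ends of 300 bp in place of 25% of the width, chr19:50178901-50181950 had a change of 0.12 and did not pass.

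The opposite order was strongest at chr19:36209101-36211250, whose inner part had 2.55 and 2.04 CPM in DoxEtop and 2.68 and 2.68 CPM in Dox, against 5.37 and 5.70 CPM in Etop and 5.20 and 7.24 CPM in Control. Its outer parts had 6.29 and 5.87 CPM in DoxEtop and 4.53 and 5.88 CPM in Dox, against 5.48 and 6.44 CPM in Etop and 4.79 and 5.44 CPM in Control. The arms were apart in the inner part and overlapped in the outer parts, and the ratio changed by -1.41 (SE 0.214, adjusted p = 0.000495, edgeR). The other 3 were chrX:41192001-41194400 at -1.09, chr2:74667451-74669500 at -0.91 and chr19:39339751-39343550 at -0.57. With ends of 300 bp none of the 4 passed, and chr19:39339751-39343550 turned to 0.31. Leaving out Control replicate 2 ended the call at chrX:41192001-41194400 (-0.93), chr2:74667451-74669500 (-0.85) and chr19:39339751-39343550 (-0.45). That at chr2:74667451-74669500 also ended without Dox replicate 2, Etop replicate 1, Etop replicate 2, DoxEtop replicate 1 or DoxEtop replicate 2 (-0.89 to -0.80), and that at chr19:39339751-39343550 without Dox replicate 1, Etop replicate 1 or DoxEtop replicate 1 (-0.55 to -0.52).

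**Figure D4:**
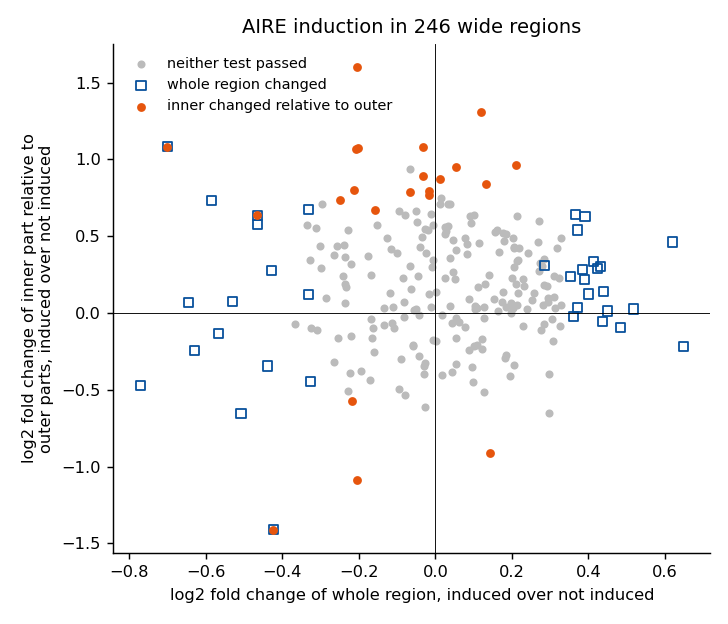
Each of the 246 wide regions by the log2 fold change of the whole region (x) and of its inner part relative to its outer parts (y), induced over uninduced. Open squares mark the 36 regions that changed as a whole and filled orange points the 22 whose inner part changed relative to the outer parts; 3 regions carry both marks.

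Counted once each as a whole, 36 of the 246 wide regions changed with AIRE induction (14.6%), 16 lower (6.5%) and 20 higher (8.13%), by edgeR at an adjusted p of 0.05. Over all 35741 regions 10.6% passed, 8.76% lower and 1.84% higher. Mid-width regions had 6.26% lower and 6.19% higher, and regions up to 300 bp had 9.71% and 0.533%. The median log2 fold change was 0.04 in wide regions and -0.06 over all. Summed counts grow with the width of a region, and their part in these shares was not tested. The count was 13 without DoxEtop replicate 1 (5.28%, against 5.3% of all regions) and 15 without Dox replicate 2 (6.1% against 6.38%). It was 21 without DoxEtop replicate 2 (8.54% against 8.5%), so without any of these libraries the share was near or below that of all regions. The share stayed above it without Control replicate 2 (13, 5.28% against 4.43%), Etop replicate 1 (20, 8.13% against 7.24%) or Dox replicate 1 (23, 9.35% against 8.52%). It also did without Control replicate 1 (17.9% against 13.0%) or Etop replicate 2 (12.6% against 9.99%). The number of higher regions rested on single libraries. Against 20 with all libraries, it was 5 without Control replicate 2, Dox replicate 2 or Etop replicate 1, and 4 without DoxEtop replicate 1. Lower regions numbered 8, 10, 15 and 9 in the same order, against 16 with all libraries. Shares by direction over all regions were not computed for these settings.

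The 6 regions with the strongest fall all lay on chromosome 19. The lowest fold change was at chr19:41308451-41310500, with 2.12 and 2.99 CPM in DoxEtop and 2.89 and 2.90 CPM in Dox, against 5.77 and 4.25 CPM in Etop and 4.49 and 4.58 CPM in Control (log2 fold change -0.77, SE 0.157, adjusted p = 0.000893, edgeR). At chr19:50178901-50181950 the levels were 2.62 and 3.65 CPM in DoxEtop and 3.50 and 3.10 CPM in Dox, against 5.80 and 5.17 CPM in Etop and 4.42 and 5.54 CPM in Control (-0.70, SE 0.118, adjusted p = 8.83e-05, edgeR). The arms did not overlap in either region. The whole of chr19:36246701-36250400 averaged 4.25 ± 0.290 CPM in induced and 6.50 ± 1.11 CPM in uninduced libraries (SD, n = 4 each). Its log2 fold change was -0.65 (adjusted p = 5.74e-05, edgeR).

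Next came chr19:36192701-36194800 at -0.63 and chr19:41081201-41083700 at -0.58, both with the arms apart. At chr19:36192701-36194800 a single tall maximum was itself lower, and chr19:36193251-36193400 within it had 8.58 and 10.5 CPM in DoxEtop and 14.9 and 10.4 CPM in Dox, against 18.2 and 20.4 CPM in Etop and 21.6 and 23.4 CPM in Control (log2 fold change -0.92, adjusted p = 0.0012, edgeR). The sixth, chr19:55895701-55898300 (-0.57), had overlapping arms, with 4.14 CPM in Dox replicate 1 against 4.03 CPM in Etop replicate 2, and did not pass without DoxEtop replicate 1 (-0.43, adjusted p = 0.0776, edgeR).

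The strongest rise was at chr19:1265351-1267400, with 4.57 and 3.81 CPM in DoxEtop and 3.46 and 4.45 CPM in Dox, against 3.12 and 2.50 CPM in Etop and 2.41 and 3.02 CPM in Control (log2 fold change 0.65, SE 0.162, adjusted p = 0.0069, edgeR). The region with the most higher windows, chr19:40696251-40698650, had 5.93 and 7.99 CPM in DoxEtop and 5.78 and 8.36 CPM in Dox, against 4.30 and 4.83 CPM in Etop and 4.62 and 4.32 CPM in Control (0.62, SE 0.120, adjusted p = 0.000507, edgeR). At chr22:50963251-50965500 the levels were 5.56 and 5.32 CPM in DoxEtop and 4.50 and 4.79 CPM in Dox, against 3.64 and 3.73 CPM in Etop and 3.76 and 3.24 CPM in Control (0.52, SE 0.117, adjusted p = 0.00258, edgeR). The arms were apart in all 3.

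The remaining regions of the 6 highest were chr10:30023951-30026250 at 0.48, where the arms overlapped, chr15:74218401-74220600 at 0.45 and chr19:34971351-34973850 at 0.44. Each depended on single libraries. The call at chr10:30023951-30026250 ended without Control replicate 2, Dox replicate 2, Etop replicate 1 or DoxEtop replicate 1 (0.38 to 0.43). That at chr15:74218401-74220600 ended without Dox replicate 2 or without any 1 of the Etop and DoxEtop libraries (0.40 to 0.43), and that at chr19:34971351-34973850 without Dox replicate 1, Etop replicate 1, DoxEtop replicate 1 or DoxEtop replicate 2 (0.32 to 0.43). At chr19:1265351-1267400 it ended without Dox replicate 2 (0.55) or with the counted windows placed 50 bp later (0.46).

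**Figure D5:**
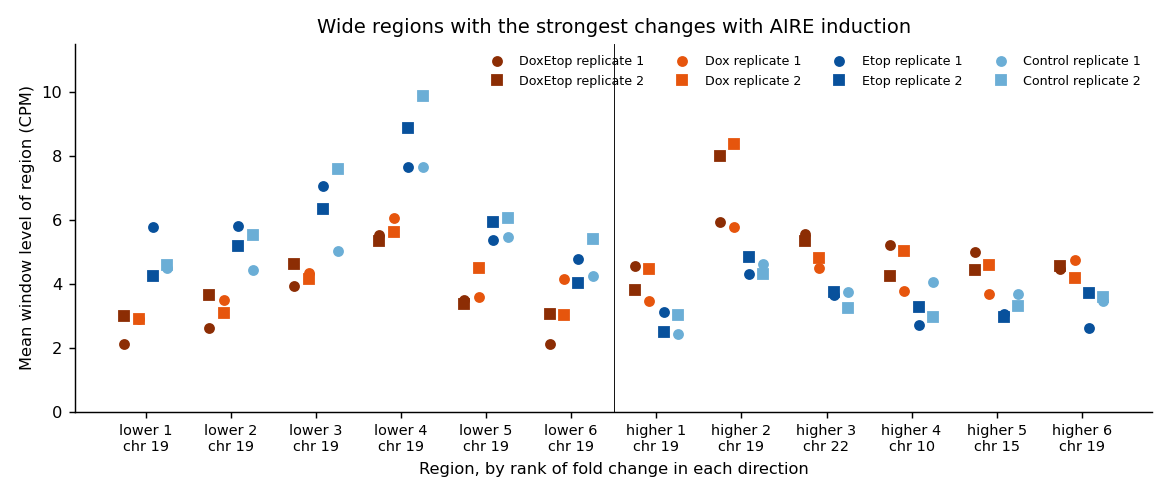
Mean window level (CPM) of the 6 regions with the lowest and the 6 with the highest log2 fold change among wide regions that changed with AIRE induction, in the order of the text, 1 point per library. The 4 induced libraries lie apart from the 4 uninduced ones in 10 of the 12 and overlap them in the sixth lower and the fourth higher region. The 12 were picked by their fold change in these same libraries, so the separation follows in part from that choice.

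The 88 wide regions on chromosome 19 had 13 lower (14.8%) and 5 higher (5.68%) and a median log2 fold change of -0.04. The 158 on other chromosomes had 3 lower (1.9%) and 15 higher (9.49%) and a median of 0.09. Over all widths the shares were 11.8% lower and 0.98% higher on chromosome 19 and 8.22% lower and 1.99% higher elsewhere. In single windows of wide regions, 11.7% were lower on chromosome 19 against 3.73% elsewhere, and among all windows 10.0% were lower on chromosome 19 and 5.49% elsewhere. Wide regions on chromosome 19 also had taller maxima, with a median of 9.58 CPM in the highest window against 6.93 CPM elsewhere, and its part in these shares was not tested.

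Of the 10 widest regions, 1 changed as a whole (chr19:36246701-36250400), a share near the 10.6% of all regions, while chr19:42756601-42760650 and chr19:39339751-39343550 changed in their ratio of inner to outer level. The widest region, chr19:30015501-30020900, had 4.10 and 4.71 CPM in DoxEtop and 4.74 and 5.01 CPM in Dox, against 3.38 and 4.35 CPM in Etop and 4.12 and 3.94 CPM in Control. These values overlap, and 1 of its 99 windows passed, higher. At chr19:42756601-42760650 the inner part had 5.04 to 6.02 CPM in induced and 3.95 to 5.25 CPM in uninduced libraries, and the outer parts 2.96 to 4.81 CPM in induced and 4.30 to 5.74 CPM in uninduced libraries (change of the ratio 0.79, SE 0.196, adjusted p = 0.0219, edgeR).

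No wide region and none of its windows passed a test for etoposide at an adjusted p of 0.05. In the windows 0 passed edgeR's test (663 had an unadjusted p under 0.05), as among all windows (0%), and DESeq2 also called 0. As whole regions 0 of 246 passed with edgeR (22 at an unadjusted p under 0.05) and 0 with DESeq2, against 0.00839% of all regions (0.0028% lower and 0.0056% higher). The ratio of inner to outer level passed in 0 with edgeR (12 unadjusted), as over all regions tested (0%). In the outermost 250 bp the mean level was 3.87 ± 0.370 CPM with etoposide and 3.86 ± 0.328 CPM without it, and beyond 1000 bp it was 5.03 ± 0.165 with and 4.94 ± 0.088 CPM without it (SD, n = 4 each), and the libraries with and without etoposide overlapped at both distances.

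Single groups of 2 libraries gave fewer calls. DoxEtop against Etop had 9 wide regions, 6 lower and 3 higher (3.66%, against 3.92% of all regions, 3.39% lower and 0.532% higher). DoxEtop against Control had 10, 7 lower and 3 higher (4.07% against 2.52%, 2.19% lower and 0.33% higher). Dox against Control had 4, 3 lower and 1 higher (1.63% against 1.03%, 1% lower and 0.028% higher), all by edgeR. These comparisons share libraries. Etop against Control called 0 (11 unadjusted, 0% of all regions), and DoxEtop against Dox called 0 (9 unadjusted, 0% of all regions). For the interaction, the test of whether induction acted differently with etoposide, edgeR called 0 (2 unadjusted, 0% of all regions). DESeq2 called 0 in each of these 3. At chr19:36246701-36250400 the log2 fold change was -0.65 for DoxEtop against Etop (adjusted p = 0.0127), -0.64 for Dox against Control (adjusted p = 0.0298) and -0.57 for DoxEtop against Control (adjusted p = 0.0403), by edgeR.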

How the data were processed

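Cells were fixed and FAIRE DNA was sequenced as paired-end reads, per the labels' protocols. The submitters' processing notes name Trim Galore, Bowtie2, Bowtie and hg19. The authors deposited raw counts per window, 1 column per library. The rule for choosing windows and for counting fragments is not given in the sources used here. Libraries of input DNA were not analysed here. Every deposited window held at least 111 counts over the 8 libraries (median 160).

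The test on window counts was that of edgeR 4.0.16 (R 4.3.3, glmQLFit and glmQLFTest, two-sided), with TMM factors of 0.976 to 1.014 from all 256141 windows, terms for AIRE induction and etoposide, and Benjamini-Hochberg adjustment over the table at 0.05. filterByExpr removed 0 windows. For whole regions, counts were summed over windows 150 bp apart, which do not overlap. The inner 50% of each region was compared with the outer 25% at each end in 1 fit with the library as a block. Single comparisons used 1 mean per group. The biological coefficient of variation was 26.3% for windows and 24.5% for regions. In the single comparisons the p-values measure the spread between 2 biological replicates per group. In the fits with terms for AIRE induction and etoposide, that spread also includes any difference in the induction effect with and without etoposide. Overlapping windows share fragments. DESeq2 1.42.0 was an alternative.

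The wide regions, the contrasts and the rules for naming were chosen with earlier results of these data known. Named are the 10 widest regions, the 3 nearest the width limit on each side, the 6 lowest and 6 highest fold changes among regions that passed in each AIRE fit, and the 3 regions with the most windows lower and higher. No genes or sequences are given, since no hg19 annotation or genome was used here. Profiles, maxima and shares by width or chromosome are descriptions without a test.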

Additional observations from a re-analysis of the deposited data

Results flagged for a closer look

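Of 94 sets of 4 libraries checked in the named regions, 3 held a library far from the others, where chance gives about 1 in 20. In the uninduced arm, chr15:91477451-91479700 had a mean level of 4.58 CPM in Etop replicate 1, against 5.14 to 5.26 CPM in the other 3 libraries. In the induced arm, chr19:41308451-41310500 had 2.12 CPM in DoxEtop replicate 1, against 2.89 to 2.99 CPM in the other 3. At chr1:228268801-228271950 the log2 ratio of inner to outer level was 1.76 in DoxEtop replicate 1, against 1.02 to 1.14 in the other 3 induced libraries.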

How the results depend on the processing

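Shares below are of the wide set, against all windows or regions tested. With the 817 regions over 1500 bp, AIRE induction called 2024 windows (7.49% against 7.44%) and 107 regions (13.1% against 10.6%). Etoposide called 1 region (0.122% against 0.00839%) and Dox against Control 8 (0.979% against 1.03%). DoxEtop against Etop called 29 (3.55% against 3.92%) and DoxEtop against Control 26 (3.18% against 2.52%). Over 3000 bp the counts for AIRE induction were 258 windows and 4 regions, and those of the 3 single comparisons 1, 2 and 2 in the same order. Merging only windows without a gap left 135 regions. It gave 579 windows (9.35% against 7.44%), 19 regions (14.1% against 10.3%) and 13 for inner against outer (9.63% against 4.61%). The single comparisons gave 2 (1.48% against 1.11%), 5 (3.7% against 3.97%) and 5 (3.7% against 2.39%). Regions formed again from evenly selected windows, an alternative chosen after seeing the data, numbered 141 over 2000 bp. They gave 529 windows (399 lower, 8.74% against 6.52%) and 18 regions (7 lower, 11 higher, 12.8% against 8.08%). Inner against outer gave 11 (8 relatively higher, 7.8% against 3.4%). The single comparisons gave 0 (against 0.832%), 3 (2.13% against 3.0%) and 5 (3.55% against 1.98%). These 4 settings change how many regions are counted. DESeq2 gave 1 region for Dox against Control (0.407% against 0.562%) and 5 for DoxEtop against Etop (2.03% against 2.46%). Windows placed 50 bp later gave 2 for Dox against Control (0.813% against 1.27%). The cause was not tested.

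Leaving out 1 library gave 366 to 1152 windows and 13 to 44 regions for AIRE induction, 3 to 32 regions for inner against outer, 0 to 7 for Dox against Control, 0 to 12 for DoxEtop against Etop and 0 to 17 for DoxEtop against Control. The edge and centre differences kept their sign and moved by less than the spread in every setting run, from -0.25 to -0.13 and from 0.06 to 0.11 on the log2 scale. The reversed value was chr19:39339751-39343550, at 0.31 with ends of 300 bp. Replicate numbers did not pair the samples, with correlations of deviations from -0.0767 to 0.136, and a replicate block gave 882 windows, 37 regions and 20 for inner against outer.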
